A study of Homo sapiens with 4 samples.

Results

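The contrast joined both differences of the study: AMO1 myeloma cells with PHF19 overexpression and the title prefix IFN were set against AMO1 cells with the plain empty vector. Overlapping ATAC-seq peaks of these 2 libraries on chromosomes 1 to 22 were merged into 54090 regions, of 71853 when the peaks of all 4 libraries of the series were merged. A peak was present in both libraries in 38025 of them, and 31942 of those were compared, being regions whose mean height over both libraries was 1 fragment per M or more. The height of a region was its largest pileup, the number of fragments covering the summit, scaled by the fragment total that the file header states, in M (mega). Each difference is a log2 ratio of heights, IFN PHF19 overexpression over empty vector, centred on the median of the regions with a peak in both.

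AMO1 is an established human plasma cell line from a patient with a plasma cell tumour, and the labels give its cell type as multiple myeloma. The plain empty vector library came from cells labelled wild type and transfected with the empty PCDH vector. The other library came from cells labelled PHF19 overexpression and transfected with the PHF19 plasmid, and its title begins with IFN. What IFN stands for is not said in the labels, which name no interferon treatment, dose or time. The series also holds PHF19 overexpression without the prefix and the empty vector with it, whose values stand beside those of the contrast. All 4 libraries share the line, the medium and the same Tn5 protocol. The header of the IFN empty vector peak list names a different project folder from the others. Whether that library was prepared or processed apart is not stated. Each group is 1 library, and the labels do not say whether cells were clones, pools or separate transfections. The vector and the prefix cannot be told apart within the contrast, no test between conditions was possible, and the 95% intervals of log2 ratios below are exact intervals for a ratio of 2 counts that cover counting error only.

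ATAC-seq uses the Tn5 transposase, which inserts sequencing adapters into DNA that is free of nucleosomes, so tall peaks mark open promoters and enhancers. PHF19 is a Polycomb-like protein that reads methylated histone H3 and helps recruit Polycomb repressive complex 2, which places the repressive H3K27me3 mark on the promoters of developmental genes. Interferons act through JAK kinases and STAT and IRF factors, which bind the interferon-stimulated response element and the gamma-activated STAT site in the promoters of interferon-stimulated genes. Openness of a promoter is not a measure of its transcription.

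Promoter stretches of 7 genes are shown because the contrast was high or low at their starts, or close to the 2-fold line, and because each holds a motif of the pathways above. They are RefSeq promoter sequence on GRCh38.p14, on the strand of the gene, and all lie inside the merged region of that gene. The IFI44L region was under the minimum mean height and was not among the regions compared. Capitals mark the motif on either strand: the interferon-stimulated response element (GAAA, 2 free bases, GAAA) in GBP4, IFI44L, PARP9 and ERAP2, a STAT site (TTC, 3 free bases, GAA) in IRF1 and IFNG, and an ETS-IRF composite (GGAA, 2 free bases, GAAA) in CD28. GBP4 lies at chr1:89198927-89198956, IFI44L at chr1:78620244-78620424, PARP9, whose region is shared with DTX3L, at chr3:122564301-122564381, and ERAP2 at chr5:96876430-96876499. IRF1 lies at chr5:132490849-132490937, IFNG at chr12:68159934-68159990 and CD28 at chr2:203706585-203706638.
GBP4: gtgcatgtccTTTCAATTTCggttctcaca
IFI44L: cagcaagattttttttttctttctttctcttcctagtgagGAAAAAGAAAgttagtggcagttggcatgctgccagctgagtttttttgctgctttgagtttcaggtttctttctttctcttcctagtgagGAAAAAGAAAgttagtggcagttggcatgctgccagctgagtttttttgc
PARP9: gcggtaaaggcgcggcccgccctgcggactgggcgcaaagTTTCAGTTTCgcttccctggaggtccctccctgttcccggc
ERAP2: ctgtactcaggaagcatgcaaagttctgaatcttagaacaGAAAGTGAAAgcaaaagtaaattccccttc
IRF1: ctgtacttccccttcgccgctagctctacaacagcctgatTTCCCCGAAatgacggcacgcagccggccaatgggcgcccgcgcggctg
IFNG: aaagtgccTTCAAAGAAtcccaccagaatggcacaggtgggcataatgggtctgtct
CD28: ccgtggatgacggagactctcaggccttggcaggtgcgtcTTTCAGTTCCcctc

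The targeted gene, PHF19, was examined first, although openness does not show how much PHF19 a cell makes. A peak inside the gene at chr9:120857960-120858282 had a height of 7.33 in IFN PHF19 overexpression and 7.90 in PHF19 overexpression without the prefix, and neither empty vector library had a peak there. The region is 323 bp long, little more than the mean fragment length of 269 bp in the first of these libraries. Whether reads there came from the PHF19 plasmid or from the gene itself cannot be told from the peaks, so the region is not read as openness. The other 4 regions in PHF19 had a peak in all 4 libraries. At a listed gene start at chr9:120875744-120877934 the heights were 8.88 in empty vector, 9.11 in PHF19 overexpression, 7.27 in IFN empty vector and 6.66 in IFN PHF19 overexpression. At another listed start, at chr9:120868450-120869501, they were 12.4, 10.5, 9.91 and 9.04 in the same order. The log2 ratios of these 4 regions ran from -0.47 to -0.19.

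At the scale of the genome, most regions were alike and most of the differing ones lay away from gene ends. Of the regions compared, 1187 (3.72%) were at least 2-fold higher with IFN PHF19 overexpression and 837 (2.62%) at least 2-fold lower. Distal regions, more than 10 kb from every protein-coding gene end, were past 2-fold more often than regions at gene ends: 867 of 15337 distal regions (5.65%) were higher and 611 (3.98%) lower. Of the distal regions, 7551 lay inside a protein-coding gene, 440 of them higher and 292 lower. Within 1000 bp of a gene end, 117 of 10316 regions (1.13%) were higher and 56 (0.543%) lower. Distal regions are lower in height. At mean heights of 1 to 2 fragments per M, 9.71% of distal and 9.75% of gene regions, as defined below, were higher. The shares of lower regions there were 3.62% and 1.82%. At 2 to 5 fragments per M, 180 of 5772 distal and 45 of 2363 gene regions were higher, and 277 and 19 lower. At 5 to 10 fragments per M, 10 of 1991 distal and 4 of 4292 gene regions were higher, and 69 and 7 lower. The shares were thus alike only for higher regions of the lowest heights. When gene starts listed in RefSeq replaced gene ends where they exist, 10671 gene regions were compared, of which 124 (1.16%) were higher and 58 (0.544%) lower, and this set is called gene regions from here on. The median log2 ratio was -0.12 over gene regions and 0.03 over distal regions, and 3547 gene regions lay above 0.

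The regions past 2-fold differed from the rest in position and width. Of the higher regions 73.0% were distal and of the lower regions 73.0%, beside 48.0% of all regions compared. A region more than 100 kb from any gene end was found in 22.3% of the higher, 21.3% of the lower and 11.3% of all. The higher regions were narrow, with a median width of 716 bp, while the lower regions had a median of 984 bp, close to the 980 bp of all. The higher regions rested on few fragments, with medians of 34 in IFN PHF19 overexpression and 23 in empty vector. The lower regions had medians of 22 and 96. Among them 50 higher and 48 lower regions were past 4-fold.

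**Figure D1:**
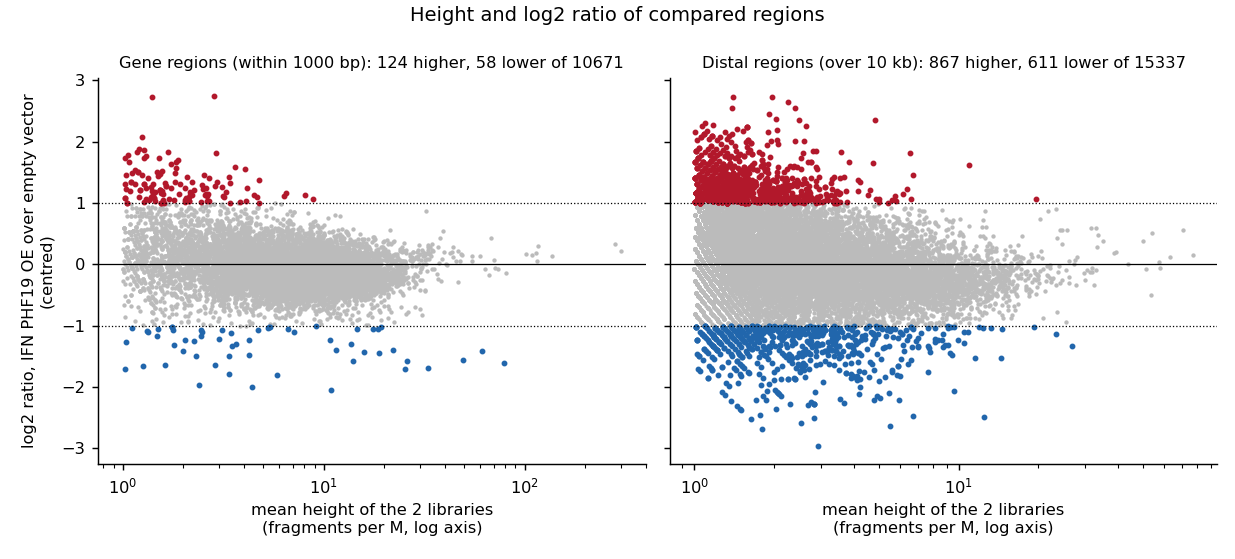
Each point is 1 region compared, with the mean height of both libraries (fragments per M, log axis) on the x axis and the centred log2 ratio, IFN PHF19 overexpression over empty vector, on the y axis. Gene regions are on the left and distal regions on the right, red points are at least 2-fold higher and blue points at least 2-fold lower. The 867 higher distal points crowd at low heights, and the tallest gene regions past 2-fold are all blue.

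The direction of the differing regions went with their height. Among regions with a mean height of 1 to 2 fragments per M, 903 of 10050 were higher and 320 lower, and the median log2 ratio was 0.21. Among regions of 10 and above, 3 of 4128 were higher and 36 lower, with a median of -0.18. Without that trend, by removing the median of 20 height classes, 777 regions were higher and 1047 lower, and with a minimum height of 2 fragments per M the split was 284 higher to 517 lower. The excess of higher over lower regions was therefore not kept over all regions under either setting. At gene ends it was, with 91 higher and 64 lower without the height trend and 46 and 40 at that minimum height. Among the 43 gene and distal regions named below by rank, 40 stayed within their counting interval with height classes removed and 3 did not.

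The 12 gene regions that differed most in the higher direction, ranked by the interval bound nearest to 0, lay on 8 chromosomes. NKX2-5 encodes the homeobox factor of the heart muscle lineage, and its promoter at chr5:173234537-173235595 had heights of 0.731 in empty vector, 5.05 in PHF19 overexpression, 0.516 in IFN empty vector and 4.95 in IFN PHF19 overexpression. Both PHF19 libraries were high and both empty vector libraries low, and the log2 ratio of the contrast was 2.75 (95% interval 2.03 to 3.53). VAX2, a homeobox gene of the ventral eye, had 2.05, 5.05, 2.06 and 6.05 in the same order, again with both empty vector libraries below both PHF19 libraries, and a log2 ratio of 1.55 (1.06 to 2.05).

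Further genes in this group had the same order of libraries. RIMBP2, a scaffold of the presynaptic active zone, had heights of 0.475, 2.08, 0.379 and 2.02, in the library order given for NKX2-5 and kept from here on where only the values are listed. The region shared by EIF4E1B, of the cap-binding translation factor family, and SNCB, which encodes beta-synuclein, had 1.79, 4.72, 1.27 and 5.43. Their log2 ratios were 2.07 and 1.59. SDK2, a cell adhesion protein of retinal synapses, stood at 0.512, 1.59, 0.349 and 1.89, and INSYN2B, which lies inside DOCK2, at 0.548, 1.65, 0.713 and 2.02. All 4 regions were higher in each PHF19 library than in either empty vector library, by log2 ratios of the contrast of 1.88 for SDK2 and 1.87 for INSYN2B.

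Of the remaining higher gene regions, SNX9, PRKAG2, PLEKHG7, ERAP2 and ZNF438 also had both PHF19 libraries above both empty vector libraries. SNX9, a sorting nexin of endocytosis, had heights of 0.877, 3.46, 1.0 and 2.87, and PRKAG2, a regulatory subunit of AMP-activated kinase, 0.877, 3.13, 0.789 and 2.81. PLEKHG7 had 0.731, 1.04, 0.971 and 2.63, so that only the combined library stood apart, with a log2 ratio of 1.83 (1.04 to 2.68). ERAP2, an aminopeptidase of the endoplasmic reticulum that trims peptides for MHC class I, had 2.63, 4.17, 2.82 and 6.90 at chr5:96875893-96877434. Its log2 ratio was 1.38 (0.94 to 1.83), and it holds the response element printed above. The ZNF438 region, at an internal start of this zinc finger gene, had heights of 0.365, 1.26, 0.728 and 2.44. It rested on 10 fragments in empty vector and 40 in IFN PHF19 overexpression, with a log2 ratio of 2.73 (1.70 to 3.89).

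The 12 lower gene regions included much taller promoters, and most shared 2 chromosomes. FOXD1, a forkhead factor of the kidney stroma, had heights of 17.6 in empty vector, 5.32 in PHF19 overexpression, 13.9 in IFN empty vector and 4.27 in IFN PHF19 overexpression at chr5:73446864-73449618. SLAIN2, which promotes microtubule growth, had 119, 41.5, 80.3 and 39.3 at chr4:48340774-48342675. In both the PHF19 libraries were low and the empty vector libraries high, with log2 ratios of -2.05 (-2.43 to -1.69) and -1.61 (-1.74 to -1.49). The same held for the neighbouring kinase gene TEC, at 88.5, 32.4, 59.2 and 33.7, and for IQGAP2, a scaffold of the cytoskeleton, at 39.0, 14.6, 29.5 and 12. NFXL1, FER, POC5 and a region 957 bp from F2R, the thrombin receptor gene, had log2 ratios from -1.69 to -1.44 and lay on chromosomes 4 and 5 as well.

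In those stretches of chromosomes 4 and 5 the whole neighbourhood was lower. The median log2 ratio of all regions within 2.5 Mb was -0.80 around SLAIN2 and -0.79 around FOXD1. After subtracting the local median, FOXD1 stayed past 2-fold at -1.26, while SLAIN2 came to -0.81, IQGAP2 to -0.88 and TEC to -0.60. Of the 12 lower gene regions 4 stayed past 2-fold in this way, and of the 12 higher ones all 12 did, ERAP2 as the closest at 1.0.

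The 3 lower genes outside those neighbourhoods are genes of immune cells. CD28, the costimulatory receptor of T cells that is also found on plasma cells, had heights of 9.06 in empty vector, 2.85 in PHF19 overexpression, 7.57 in IFN empty vector and 2.63 in IFN PHF19 overexpression at chr2:203705215-203707089. Its local median was 0.29, so that the log2 ratio of -1.80 (-2.30 to -1.33) grew to -2.08 beside its neighbours. IFNG, which encodes interferon gamma, had 3.80, 1.59, 3.64 and 0.977 at chr12:68158709-68160341 and a log2 ratio of -1.97 (-2.83 to -1.20), with 104 fragments against 16. CCL3L3, a chemokine gene, had 7.02, 1.92, 6.81 and 1.77 and a log2 ratio of -2.0. CCL3L3 is 1 of several near-identical copies, and how reads were shared among them is not given in the sources used here, so its value is uncertain.

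**Figure D2:**
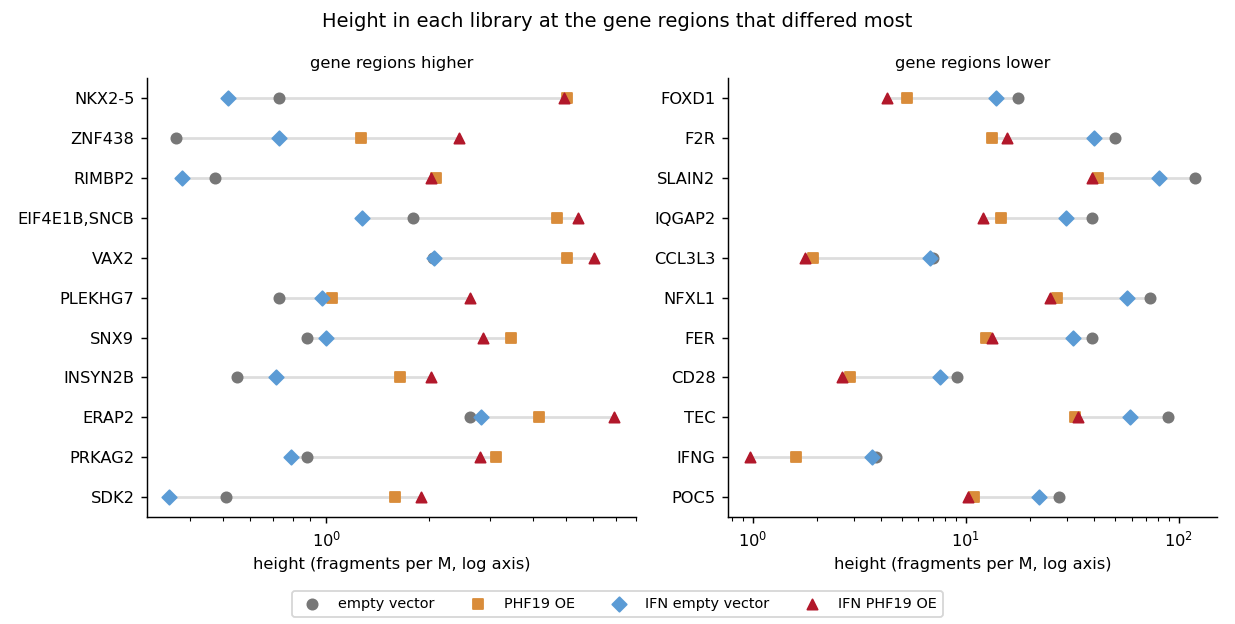
Height (fragments per M, log axis) in each of the 4 libraries at the named higher (left) and lower (right) gene regions, with 1 marker per library and a grey line over their range. At NKX2-5 and VAX2 the PHF19 markers (square and triangle) lie right of the empty vector markers (circle and diamond), at FOXD1 and CD28 they lie left of them, and at PLEKHG7 the IFN PHF19 overexpression triangle stands alone at 2.63.

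The 10 distal regions that differed most in the higher direction were spread over 7 chromosomes and none lay on chromosomes 4 or 5. A region 12041 bp from an end of YWHAQ and inside that gene, which encodes a 14-3-3 protein, had the tallest of these peaks at chr2:9617982-9618956. Its heights were 1.57 in empty vector, 4.72 in PHF19 overexpression, 2.44 in IFN empty vector and 8.06 in IFN PHF19 overexpression, a log2 ratio of 2.35 (1.84 to 2.88). The region at chr21:38780746-38781471, 23712 bp from the transcription factor gene ETS2, had 0.621, 1.43, 0.683 and 3.91 and a log2 ratio of 2.64 (1.85 to 3.51). In both the combined library was the highest of the 4 and PHF19 overexpression alone the next.

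The other higher distal regions differed in how the libraries between the extremes were ordered. Near AMPH, inside the non-coding gene TRG-AS1 at chr7:38367565-38368446, the heights were 0.804, 3.51, 2.84 and 4.15, so that the plain empty vector stood apart from all other libraries. Inside GRAMD1B at chr11:123430031-123431303 they were 0.913, 3.51, 0.683 and 4.40, and the empty vector libraries were together. Inside ADAMTSL3 at chr15:83927842-83929217 they were 0.694, 1.81, 1.58 and 4.09, with both single differences in between. Regions near OPRK1 (2.73), GFRA2 (2.46) and TSN (2.56) and inside EBF2 (2.37) and ZNF438 (2.73) completed the group by their log2 ratios. The ZNF438 region is the same one that was named among the higher gene regions. All 10 stayed past 2-fold beside their local medians.

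The lower distal regions had larger counts in the empty vector library. The region at chr2:8234417-8235504, inside the non-coding gene LINC00299, whose nearest protein-coding gene is the HLH inhibitor gene ID2 at 446552 bp, had 577 fragments in empty vector and 62 in IFN PHF19 overexpression. Its heights were 21.1 in empty vector, 4.99 in PHF19 overexpression, 20.1 in IFN empty vector and 3.79 in IFN PHF19 overexpression, and the log2 ratio was -2.49 (-2.89 to -2.11). A region at chr22:22025375-22026598, 42588 bp from the topoisomerase gene TOP3B, had 9.43, 1.32, 7.34 and 1.53 and a log2 ratio of -2.64 (-3.29 to -2.04). Both regions were low in both PHF19 libraries and high in both empty vector libraries.

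Similar orders were seen in the rest of this group. Inside CELF4, an RNA-binding protein gene, at chr18:37434034-37435201, the heights were 5.19, 1.37, 5.11 and 0.672, and the log2 ratio of -2.96 (-4.00 to -2.08) was the lowest of the named regions, on 11 fragments in the combined library. Inside the synaptic vesicle gene SV2C they were 11.4, 1.54, 10.9 and 2.08, inside the phosphatase gene PTPRK 9.79, 2.25, 7.48 and 2.14, and near MED10 15.5, 4.01, 14.1 and 3.73. Near SP100, a gene of nuclear bodies, they were 4.82, 0.823, 4.01 and 0.855. For 3 of the 10, near GRHL2 and TRIB2 and inside CDK14, PHF19 overexpression without the prefix had no peak. All 10 stayed past 2-fold beside their local medians, SV2C with the largest shift, to -1.63.

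**Figure D3:**
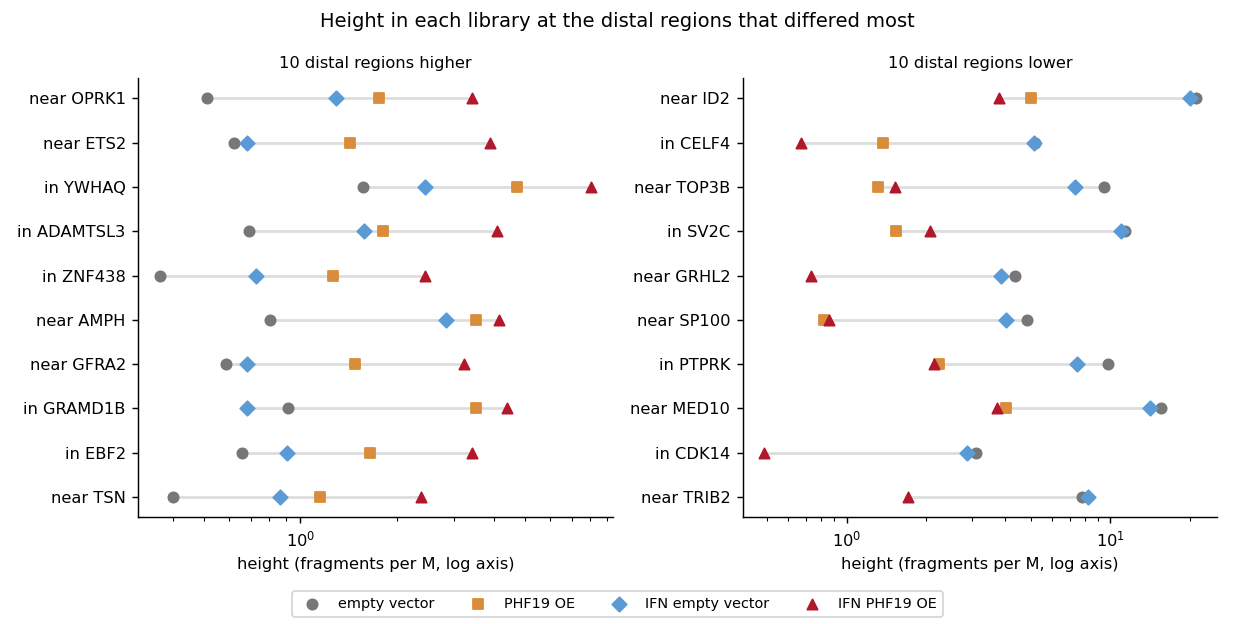
Height (fragments per M, log axis) in each library at the 10 higher (left) and 10 lower (right) distal regions, named by the gene that holds them or the nearest one, with 1 marker per library. On the right the IFN empty vector diamonds lie next to the empty vector circles, as near ID2 at 20.1 and 21.1, and a missing square means that PHF19 overexpression had no peak.

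The remaining pair of libraries was PHF19 overexpression without the prefix and IFN empty vector. It shares no library with the contrast and has the same vector difference and the opposite prefix difference. In both pairs the PHF19 library has fewer fragments, 16.4 against 27.4 M in the contrast and 18.2 against 65.9 M in this pair. Vector and depth therefore cannot be told apart. Of the 1126 higher regions with a peak in both of that pair, 879 (78.1%) were higher in PHF19 overexpression, with a median log2 ratio of 0.45. Of the 756 lower regions 18 (2.38%) were higher there, with a median of -1.13. Over all 30787 regions the share was 47.7% and the median -0.02.

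The same pair was read for gene and distal regions apart. Among gene regions 110 of 119 higher and 2 of 55 lower ones were higher in PHF19 overexpression, beside 63.5% of all gene regions. Among distal regions these were 635 of 828 (76.7%) and 11 of 554 (1.99%), beside 37.9% of all. The median heights of the higher regions were 0.840 in empty vector, 1.54 in PHF19 overexpression, 1.11 in IFN empty vector and 2.08 in IFN PHF19 overexpression. For the lower regions they were 3.51, 1.59, 3.31 and 1.34. Empty vector and IFN PHF19 overexpression chose these regions, so that they stand at the extremes is set by the choice.

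**Figure D4:**
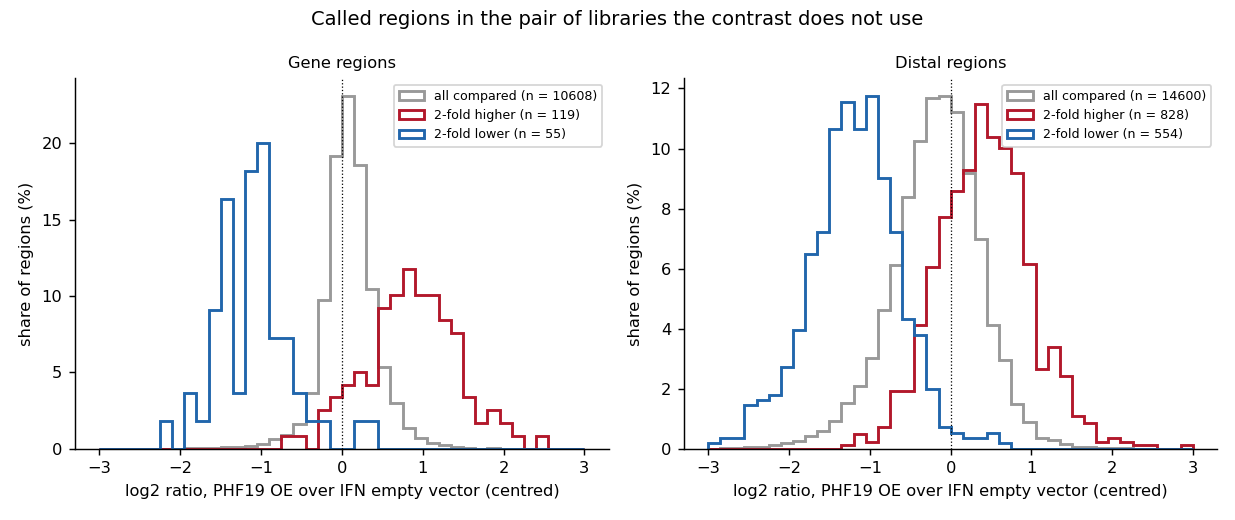
Share of regions (%, y axis) by the centred log2 ratio of PHF19 overexpression over IFN empty vector (x axis), for gene regions (left) and distal regions (right), with 1 outline for all compared regions and 1 each for those 2-fold higher or lower in the contrast. The outlines of the lower regions lie left of 0 and those of the higher gene regions mostly right of 0, with medians of -1.08 and 0.88 for gene regions.

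Regions with a peak in only 1 of both libraries were mostly small. IFN PHF19 overexpression alone had a peak in 6274 regions (11.6% of all merged regions, Wilson 95% interval 11.3 to 11.9, over regions and not over libraries). Their median height was 0.794, and 291 of these reached a gene end. Empty vector alone had a peak in 9791 (18.1%, 17.8 to 18.4), with a median height of 0.694, and 471 of these reached a gene end. The lists differ in depth, with 16.4 and 27.4 M fragments, and hold only called peaks, so a missing peak does not show closed chromatin. Of the first group 2375 (37.9%) also had a peak in PHF19 overexpression and 4348 (69.3%) in IFN empty vector. Of the second these were 2572 (26.3%) and 8891 (90.8%). The same shares over all merged regions were not computed. The IFN empty vector list is the deepest, at 65.9 M fragments, and holds the most peaks.

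Of the 5 tallest distal regions of IFN PHF19 overexpression alone, 3 lay near each other on chromosome 2, around SDC1, the gene of the plasma cell marker CD138. At chr2:20093678-20094090, inside the non-coding gene LAPTM4A-DT, the height was 17.1 in IFN PHF19 overexpression, 15.8 in PHF19 overexpression and 8.66 in IFN empty vector. A second region in that gene at chr2:20108778-20109079 had 10.9, 9.60 and 7.83, and a region 20527 bp from SDC1 at chr2:20179786-20180270 had 5.56, 6.91 and 5.28. All 3 had a peak in every library but the plain empty vector. The region at SDC1 itself was present in all, at 246 in empty vector and 314 in IFN PHF19 overexpression, a log2 ratio of 0.34.

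At listed gene starts, some of them internal, and gene ends, the tallest peak of the combined library alone was a 318 bp region in the chemokine gene CCL25 at 7.08, and no other library had a peak there. A region in SET, a histone chaperone gene, at 4.34 was likewise in no other library. SIN3A, the scaffold of a histone deacetylase complex, had a region of 6.66 in IFN PHF19 overexpression, 6.91 in PHF19 overexpression and 5.95 in IFN empty vector, and MTMR4 one of 5.98, 5.98 and 4.83. A region of KMT2A, which encodes a histone H3K4 methyltransferase, had 5.37, and 3.51 in IFN empty vector. These 5 regions were 278 to 598 bp long. Of these 5 regions, CCL25 and SET were the ones with a peak in the combined library alone.

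On the other side, 3 of the 5 tallest regions at a listed gene start or an end were absent from both PHF19 libraries. A region 252 bp from an end of IKZF3, which encodes the lymphoid factor Aiolos and is a target of lenalidomide, had 8.66 in empty vector and 7.98 in IFN empty vector. NDRG4, at an internal start that is also distal by distance to the gene's ends, had 8.11 and 8.19, and the adaptor gene SH2B2 6.94 and 5.66. Another region of IKZF3 had a peak in every library. Its log2 ratios of PHF19 overexpression over empty vector were -0.01 without the prefix and -0.37 with it. PTCH1, the Hedgehog receptor gene, and MARCHF9 kept a peak in PHF19 overexpression, at 3.90 and 4.66. The tallest distal ones were in TRIO at 8.92, in INPP4A at 8.51, the NDRG4 region at 8.11, and near RUNX3 at 7.97. In TRIO the height was 2.08 in PHF19 overexpression and 9.10 in IFN empty vector, and IFN PHF19 overexpression had no called peak. Both PHF19 lists are also the shallower ones, so vector and depth cannot be told apart there.

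Interferon-stimulated genes were described as a list of 61, of which 60 were in the gene table, 13 had no peak, 1 had a peak in empty vector alone and 46 in both libraries. Of the 42 regions compared 4 were at least 2-fold higher and 0 lower, 28 lay above 0, and the median log2 ratio was 0.10, beside 1.16% higher and a median of -0.12 over all gene regions. IDO1, which breaks down tryptophan, had heights of 0.694 in empty vector, 1.15 in PHF19 overexpression, 1.17 in IFN empty vector and 2.32 in IFN PHF19 overexpression. GBP4, a guanylate-binding GTPase, had 0.841, 1.98, 1.64 and 2.63, and IFIT2, which binds viral RNA, 0.731, 1.21, 1.18 and 1.95. In all 3 the plain empty vector was lowest, the combined library highest and both single differences lay between, with log2 ratios of 1.73 (0.90 to 2.61), 1.63 (0.87 to 2.43) and 1.41 (0.56 to 2.29). These 3 regions are low, where higher regions were common over the genome: among gene regions of 1 to 2 fragments per M 9.75% were at least 2-fold higher.

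IRF1, a transcription factor that drives interferon-stimulated genes, was the tall member past 2-fold. Its promoter at chr5:132490408-132491501 had 5.66 in empty vector, 10.2 in PHF19 overexpression, 4.37 in IFN empty vector and 12 in IFN PHF19 overexpression, a log2 ratio of 1.08 (0.76 to 1.39). Here both PHF19 libraries were high, with and without the prefix, and beside its neighbours the log2 ratio was 0.70. The region shared by PARP9 and DTX3L, which act together in ADP-ribosylation and ubiquitination, had 4.71, 4.22, 5.66 and 8.43 and a log2 ratio of 0.83, so that the combined library stood apart. IFI44L, with 15 and 18 fragments in empty vector and the combined library, was under the minimum height and not compared, and its log2 ratio was 0.99 (-0.08 to 2.08).

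Other antiviral genes lay below 2-fold. ISG15 had a log2 ratio of -0.23 (-0.66 to 0.18), STAT2 of 0.01 (-0.21 to 0.22), RSAD2 of 0.48 (0.13 to 0.83) and OAS2 of 0.46 (0.14 to 0.77). ISG20 and PSMB10, among the tallest members, were at -0.22 and -0.09. Within 50 kb of list members 4 of 41 distal regions were 2-fold higher and 0 lower, with a median of 0.07, or -0.02 beside local medians, while over all distal regions 5.65% were higher and 3.98% lower, with a median of 0.03. Among genes of interferon receptors and signalling 0 of 24 regions were higher and 1, IFNG, was lower, with a median of -0.20. The shares over all gene regions were 1.16% higher and 0.544% lower. The receptor gene IFNAR1 stood at -0.21 and the kinase gene JAK2 at -0.11.

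Promoter letters were counted in RefSeq promoter windows that run from 250 bases before a start, and 18 of the 26 named genes had one. The interferon-stimulated response element was found on either strand in 3.19% of 20759 listed promoters, in 2.83% of the 11574 that overlap a compared region, in 5 of 79 at 2-fold higher regions and in 0 of 49 at lower ones. ERAP2, GBP4, PLEKHG7, PIK3CD and SYNPO2 were the higher genes that held it. It was found in 23 of 39 promoters of compared interferon-stimulated genes. The list members with it had a median log2 ratio of 0.04 and those without it 0.22. The STAT site was in 5.77% of promoters at compared regions, in 11 of 79 at higher and 3 of 49 at lower regions. The ETS-IRF composite, which can overlap the response element, was in 2.53%, 3 of 79 and 4 of 49. These counts are small and describe letters, not bound sites.

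Genes of plasma cell identity were mostly open in both libraries, and 0 of 14 regions were past 2-fold, beside 1.16% higher and 0.544% lower of all gene regions. Among 16 genes 14 had a peak in both, and their median log2 ratio was -0.13, or 0.04 with height classes removed. IRF4, a factor on which myeloma cells depend, had 18.9 in empty vector, 10.6 in PHF19 overexpression, 13.2 in IFN empty vector and 12 in IFN PHF19 overexpression, a log2 ratio of -0.67 (-0.91 to -0.43). TNFRSF17, which encodes BCMA, was at -0.53 and the chemokine receptor gene CXCR4 at -0.73. The tall regions of SDC1 and POU2AF1 were at 0.34 and 0.06. FCRL5, at -0.99 (-1.96 to -0.10), lay just short of the 2-fold line.

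The labelled cell type was checked against marker genes. All 10 defining plasma cell genes had a peak in both libraries, with summed heights of 377 in empty vector and 434 in IFN PHF19 overexpression. Most of both sums was SDC1, at 246 and 314. In IFN PHF19 overexpression CD38, JCHAIN and POU2AF1 were also higher, while PRDM1, IRF4, XBP1, TNFRSF17, SLAMF7 and MZB1 were lower. Of 6 B cell markers BACH2 alone had a peak, and MS4A1, CD79A, PAX5 and CD22 were at 0 in both. The longer B cell programme list had a peak in both libraries at 9 of 18 genes, among them CD79B, BCL6 and BLK. None of 5 myeloid markers had one. Of 6 T and NK cell markers CD3E had a peak in both, at 12.5 and 13.5, and LCK in empty vector alone, at 1.94, while the longer T and NK cell list had a peak in both at 10 of 27 genes. COL1A1 and PDGFRB were the only ones of 4 stromal and epithelial markers with a peak. SPI1, the gene of the myeloid and B cell factor PU.1, had heights of 3.40, 1.04, 3.03 and 1.22 and a log2 ratio of -1.49 (-2.26 to -0.78), and was low in both PHF19 libraries.

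Classical Polycomb targets, the homeobox and other developmental genes on which PHF19 is known to act through PRC2, were mostly without a peak. Among 86 genes with a position 52 had none, 30 had one in both libraries, 3 in IFN PHF19 overexpression alone and 1 in empty vector alone. Past 2-fold were 0 of 27 regions, beside 1.16% higher and 0.544% lower of all gene regions, shares at which few or no calls fall in a list of this size, and the median log2 ratio was -0.06 beside -0.12 over all, or 0.01 with height classes removed and 0.01 with the mean pileup of the summits. HOXC13 (0.86), LHX1 (0.81) and MSX1 (0.56) were among the highest and PAX9 (-0.76) was the lowest. The genes with a peak in IFN PHF19 overexpression alone were HOXB13, at 1.34, FOXF1, at 0.977, and CDX2, at 0.916. HOXB13 and FOXF1 also had a peak in PHF19 overexpression, at 2.25 and 1.65, and in IFN empty vector, at 1.35 and 0.607. NKX2-5, VAX2 and FOXD1, described above, are developmental genes outside this list.

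Genes for subunits of the Polycomb complexes had 0 of 36 regions past 2-fold and a median of -0.21, beside the same 1.16% and 0.544% and a median of -0.12 over all gene regions. EZH2, the methyltransferase of PRC2, was at -0.36 (-0.62 to -0.10) and its partner EED at -0.26 (-0.71 to 0.17). PHC1, a subunit of PRC1, was the highest at 0.71 and RYBP the lowest at -0.57. Housekeeping promoters had a median of -0.27 and cell cycle genes of -0.20, with 0 of 29 and 0 of 30 past 2-fold. Lists of tall promoters thus lay slightly below 0, as tall regions in general did.

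The other lists held few members past 2-fold. Over all gene regions 1.16% were higher and 0.544% lower, shares at which few or no calls fall in lists of these sizes. In MHC class I presentation ERAP2 was the 1 of 12, while ERAP1 next to it was at 0.22, and in MHC class II presentation there were 0 of 13, with CD74, the invariant chain gene, at -0.69 (-0.86 to -0.51). IL21R, the receptor gene of interleukin 21, was lower at -1.07 (-1.68 to -0.50), with heights of 4.20, 2.30, 3.95 and 2.02, and IL6R, of the interleukin 6 receptor, was at 0.80 (0.54 to 1.07), with 8.26, 12.2, 6.33 and 14.5. Both separated the PHF19 libraries from the empty vector libraries, in opposite directions. SPI1 was the 1 of 9 regions of the B cell programme past 2-fold, and IL21R the 1 of 15 in the IL6 and JAK/STAT3 list. Genes of the unfolded protein response (20 regions), myeloma oncogenes and tumour suppressors (23) and apoptosis regulators (18) had 0 past 2-fold, with medians of -0.18, -0.05 and -0.12, of which the last 2 were above 0 with height classes removed. Among 14 adhesion regions CD24 lay just past the line at 1.03 (0.24 to 1.83) and the integrin gene ITGB7 was at -0.81. Of the NF-kappaB genes none of 24 regions was past 2-fold, and TRAF3, a brake of this pathway, and LTA had a peak in empty vector alone, at 3.40 and 2.85, while CD40 had one in IFN PHF19 overexpression alone, at 0.977.

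Among markers of other cell types a few low regions were past 2-fold. S100A8, a calcium-binding protein of myeloid cells, had heights of 0.58, 1.21, 0.561 and 1.95 and a log2 ratio of 1.73 (0.82 to 2.69). PDGFRA, of mesenchymal cells, had 0.804, 2.30, 0.546 and 2.26 and a log2 ratio of 1.48 (0.68 to 2.31). In both the PHF19 libraries were above the empty vector libraries. The myeloid and erythroid list had 18 of 21 genes without a peak and the stromal and epithelial list 12 of 19. On the T and NK cell list CD28 was the only gene at least 2-fold lower. IFNG, described above as lower, was counted among interferon receptors and signalling.

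**Figure D5:**
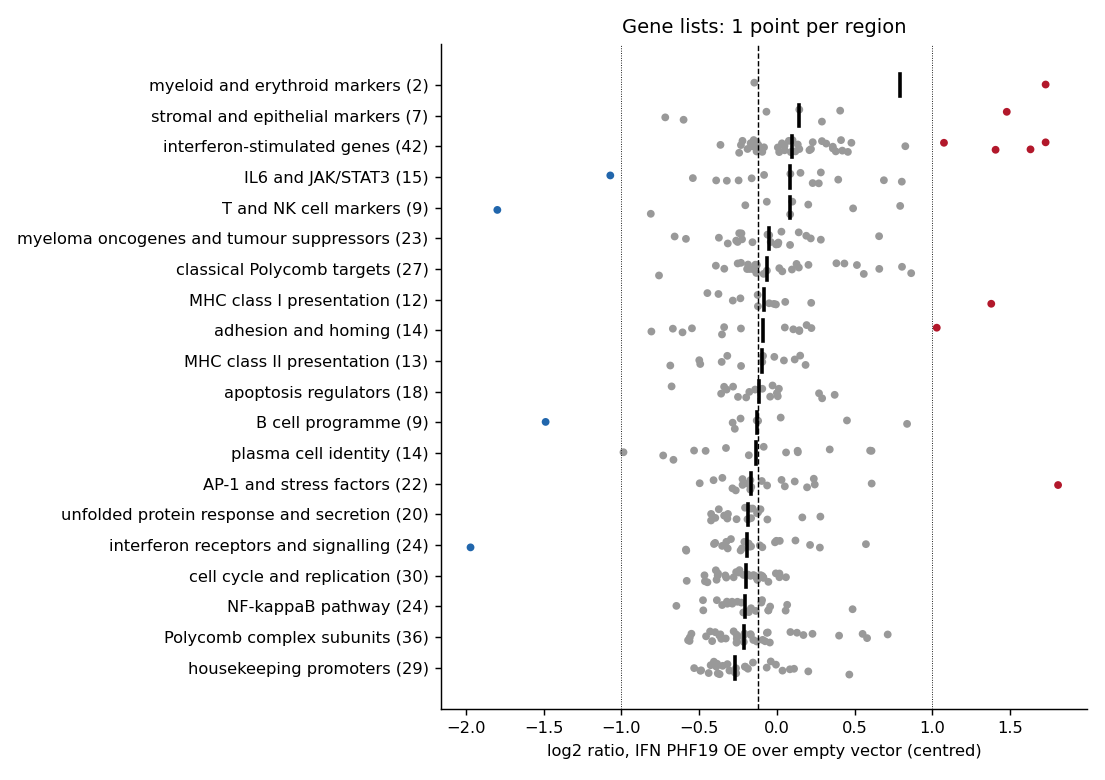
Centred log2 ratio of IFN PHF19 overexpression over empty vector (x axis) for each compared region of 20 gene lists (y axis, number of regions in brackets), with a bar at the median of each list, a dashed line at -0.12, the median of all gene regions, and dotted lines at 2-fold. The interferon-stimulated genes have 4 red points past 2-fold higher and no blue point, and the cell cycle, Polycomb subunit and housekeeping lists lie between both dotted lines.

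Differences also ran together along chromosomes. Heights were scaled by the fragment total only, and DNA copy number was neither measured nor corrected for. Broad shifts in openness and in copy number cannot be told apart here, and this was not tested. Of 512 bins of 5 Mb with at least 20 regions, 50 had a median log2 ratio above 0.3 and 13 below -0.3. The first held 365 of the 1187 higher regions and 3004 of the 31942 compared. The second held 109 of the 837 lower ones and 479 of those compared. The bins were chosen by the ratios of these same regions, so this concentration is set in part by the choice. Chromosome 8 had the largest share of higher regions, 124 of 1341 (9.25%), and chromosome 5 had 125 higher and 125 lower of 1811 (6.90% each). On chromosome 5 the bins from 70 to 75 and from 75 to 80 Mb had medians of -0.80 and -0.78, and those from 165 to 170 and from 170 to 175 Mb medians of 0.68 and 0.51. The bin of chromosome 4 from 45 to 50 Mb, with SLAIN2, TEC and NFXL1, was at -0.76, and the next, from 50 to 55 Mb, at 0.67. The pair of libraries outside the contrast had medians of -1.08 and 0.65 in these bins of chromosome 4.

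With the median of all regions within 2.5 Mb removed, 940 regions were higher and 751 lower. Of the 1187 higher regions 815 (68.7%) were still past 2-fold, and of the 837 lower ones 618 (73.8%). Of the 58 lower gene regions 29 were, so that the lower gene regions rested on their neighbourhoods more than the others. The part of such broad shifts in single regions is given above as the local value.

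Some neighbouring regions formed runs of at least 3 past 2-fold with gaps of at most 50 kb: 12 runs of higher regions, with 44 regions, and 12 of lower ones, with 45. A run at chr5:132466339-132557753 held IL5, IRF1 and RAD50, with 5 of its 6 compared regions higher. Its median heights were 3.58 in empty vector, 6.91 in PHF19 overexpression, 3.63 in IFN empty vector and 7.27 in IFN PHF19 overexpression. A run of 5 lower regions lay on the same chromosome at chr5:132007592-132117506, around ACSL6, with 13.3, 5.10, 11.3 and 6.41. Both runs separated the libraries by vector, in opposite directions, although the local median around ACSL6 was 0.44.

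Other higher runs lay near HAND1 at chr5:154520886-154642933, near FASLG at chr1:172778633-172907519, in KCNIP1 and near ETS2. The run of 4 near ETS2, at chr21:38766880-38862490, had a local median of 0.06 and median heights of 0.768, 2.22, 1.10 and 3.08, so that it stood out from its surroundings. Among the lower runs, 1 near ARRDC3 at chr5:91272148-91362020 held 5 regions, SLAIN2 and TEC shared 1, and F2R lay in another. The run of 4 in ICA1 at chr7:8115413-8198955 had a local median of 0.01 and median heights of 4.02, 1.26, 3.81 and 1.19. In that run every region was lower in PHF19 overexpression than in IFN empty vector as well.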

How the data were processed

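ATAC-seq peak lists were used for 4 libraries of AMO1 cells, 1 per group, grouped by their titles, genotype and treatment labels. Per the file headers, the authors called peaks in each library with MACS2 2.1.2 at a q of 0.01 and kept duplicates. Besides MACS2, the submitters' processing notes list bcl2fastq 2.17, Trimmomatic 0.38, DiffBind and the build hg38. Which aligner, filters and Tn5 shift were used is not given in the sources. The authors' pileup is an unscaled signal, the fragment coverage at the summit. The deposited -log10 p and -log10 q values filtered peaks in alternatives, and the deposited fold enrichment, a ratio over local background, was not used for any difference. The headers give 27.4 M fragments for empty vector, 16.4 M for IFN PHF19 overexpression, 18.2 M for PHF19 overexpression and 65.9 M for IFN empty vector. With duplicates kept, some fragments are copies of 1 molecule, and intervals hold counting error alone.

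Peaks overlapping by 1 bp were merged, heights and log2 ratios computed as defined in the report (the centring median was 0.01), and regions called past 2-fold. Intervals for ratios are exact (Clopper-Pearson). Gene positions came from RefSeq tables on the same build, with 18492 protein-coding genes, of which 14748 had a listed start. Uncharacterised LOC symbols were left out. A gene region lies within 1000 bp of a listed start, or of either end where no start is listed. This choice was made after seeing the data. The tables hold no exons or transcripts. Named were PHF19, the 12 gene regions and 10 distal regions per direction with the largest interval bound, the 5 tallest one-sided regions per side and kind, list members past 2-fold, up to 2 further tall members per list, and the 5 longest runs per direction. Other list members given for comparison were chosen after their values were seen. The members and lists were chosen with earlier results of these data known, so counts support nothing by themselves. Scripts were tested on simulated data (Python 3.11.15, numpy 2.4.6, pandas 2.3.3, scipy 1.17.1, matplotlib 3.10.9). Values of a few named or listed genes are not reported here.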

Additional observations from a re-analysis of the deposited data

Results flagged for a closer look

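At HOXA10, a homeobox gene of the Polycomb target list, the prefix difference went opposite ways with the 2 vectors. The log2 ratio of IFN over no prefix was 0.54 with the empty vector and -0.56 with PHF19 overexpression, each from 1 library per arm. It was the only one of 427 named or listed regions in which both differences were at least 0.5 in opposite directions. The difference between the vectors was not tested.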

How the results depend on the processing

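No paired test was made because each group is 1 library, and no result comes from a test. None of the 43 gene and distal regions named by rank changed direction without centring, with the local median or height classes removed, or with the mean pileup of the summits, the alternatives computed for them. Other named members were not followed one by one. Of the 20 list medians 7 changed sign with height classes removed, 1 with the local median removed and 2 with the mean pileup of the summits. Without a minimum height 1810 regions were higher, 1359 of them distal. With a minimum of 2 fragments per M 284 were higher and 517 lower, of which 46 higher ones at gene ends and 192 higher and 359 lower ones distal. With height classes removed 777 were higher, 560 of them distal. With the mean pileup of the summits as height 105 gene-end regions were lower. At 1.5-fold 3852 were higher and 2922 lower, at gene ends 414 and 396, distal 2652 and 1966. With distal set at over 50 kb there were 444 higher and 306 lower. The remaining 42 counts stayed within 1.5 times of the main value, among them those without centring, with a stricter q, with equal list lengths, with an overlap of 50%, with a window of 500 bp and with listed gene starts, an alternative chosen after seeing the data. Of 43 single regions 10 moved by more than their counting interval with the local median removed, 9 of them at the lower gene regions of chromosomes 4 and 5. With height classes removed 3 did. With the mean pileup of the summits 1 did, FOXD1, from -2.05 to -1.61. Of the 20 list medians 8 moved with height classes removed.

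Depth limits these values: 1 library per group gives no spread between replicates, the higher regions rest on medians of 23 and 34 fragments, and the list from 16.4 M fragments cannot show peaks below 8 fragments. Openness was read from called peaks only.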
